A study of Canis lupus familiaris with 33 samples.

Results

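The genes described here encode the mitochondrial respiratory chain, in lymph nodes of dogs with diffuse large B-cell lymphoma (DLBCL) and of healthy dogs. They were chosen by name: a probeset of the array was a member where its only gene symbol began with NDUF, UQCR, COX4 to COX8 or ATP5, or was SDHA, SDHB, SDHC or SDHD. This rule took 139 of 43035 probesets, for 70 of the 15115 genes with a symbol, and used no measured value. A further 5 probesets that name several genes, one of them of this family, were left out by the rule. Where a gene had several probesets, the one with the highest mean over all arrays stood for it. By role the 70 genes were 6 core and 27 accessory subunits and 7 assembly factors of complex I, 4 genes of complex II, 7 of complex III, 9 of complex IV and 10 of complex V. COX5A and several small subunits were not analysed here, and neither were the subunits that mitochondrial DNA encodes.

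The tested tissue was node biopsies of 7 dogs whose DLBCL had relapsed after chemotherapy (7 arrays, dogs aged 6.4 to 11.8 years, 13 to 672 days after the last treatment) and of 16 dogs with treatment naive DLBCL (16 arrays, aged 2.7 to 13.3 years), set against nodes of 7 healthy dogs (10 arrays) that had been put down for conditions other than lymphoma. Of the healthy arrays 4 came from healthy dog 1 and were averaged, and DLBCL samples 11 (naive) and 12 (relapsed) came from 1 dog, so that DLBCL as a whole stood for 22 dogs. Of the relapsed dogs 4 had received CHOP, the usual drug combination for lymphoma, and the others other agents, and naive sample 14 was taken under doxycycline. The tumour dogs were of many breeds, and age and breed of the healthy dogs are not in the labels used here.

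The respiratory chain sits in the inner mitochondrial membrane. Complexes I and II pass electrons from NADH and succinate to coenzyme Q, complex III hands them to cytochrome c and complex IV to oxygen. The protons pumped on the way drive complex V, the ATP synthase. Assembly factors build the complexes but are not part of them. A few complex IV subunits exist as isoforms, of which the muscle forms are best known. Lymphocytes are known to enlarge their mitochondrial mass when they are activated and divide.

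The values were log2 expression values after RMA, a normalization that forces 1 distribution of intensities on all arrays. Array medians lay between 6.85 and 6.97, and 17 tag control probesets without a canine target had means of 2.79 to 4.56. The 70 members had means of 5.14 to 14.39, all above these controls. Cell type markers also differed between the groups. T cell markers averaged 8.17 to 10.17 in DLBCL dogs and 10.54 to 11.43 in healthy dogs (7 of 9 fell), adipose tissue markers 5.71 to 11.56 in DLBCL and 7.42 to 10.58 in healthy dogs (4 of 6 fell), and proliferation markers 10.86 to 12.21 in DLBCL and 9.94 to 11.23 in healthy dogs (6 of 6 rose). B cell markers averaged 7.97 to 11.07 in DLBCL dogs, with the lowest value in naive sample 5, and 9.41 to 10.31 in healthy dogs (2 of 6 rose). Macrophage markers averaged 8.99 to 11.78 in DLBCL and 10.34 to 12.42 in healthy dogs (2 of 8 fell), and stroma markers 9.23 to 12.21 in DLBCL and 10.13 to 11.89 in healthy dogs (1 of 8 rose and 2 fell). The RNA integrity number (RIN) was 9.64 ± 0.29 in DLBCL dogs and 7.11 ± 1.12 in healthy dogs (SD, n = 22 and 7). Skeletal muscle markers averaged 5.50 to 10.38 in DLBCL and 5.59 to 5.93 in healthy dogs (0 of 6 passed), with relapsed samples 4 and 24 highest. The part of these differences in the results below was not tested, other than RIN.

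Most respiratory chain genes were higher in DLBCL than in healthy nodes, by small amounts. Of the 70 genes 46 rose and 2 fell (limma, Benjamini-Hochberg adjusted p under 0.05 over all probesets), against 19.9% of all 15115 genes that rose and 14.9% that fell. The median log2 difference, DLBCL minus healthy, was 0.27 over the 70 genes and 0.06 over all genes. Differences were positive in 63 of the 70 genes, against 9098 of all 15115 genes. By the probeset read, differences ran between -0.78 and 1.0, so that no gene changed by more than 2.00-fold. A second NDUFAF2 probeset rose by more, 1.11 (adjusted p = 5.34e-05). The brighter 35 genes had a median difference of 0.19 and the dimmer 35 one of 0.35, with 23 genes that rose in each. The part of signal level in these sizes was not tested. In whole nodes, fewer cells of a type and less RNA per cell cannot be told apart. In 3 genes every DLBCL dog lay above every healthy dog, which held for 0.549% of all genes, and in 0 genes every DLBCL dog lay below, which held for 1.18% of all genes. In 24 of the 70 genes at least 18 of the 22 DLBCL dogs lay above all healthy dogs, as in 9.14% of all genes.

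**Figure D1:**
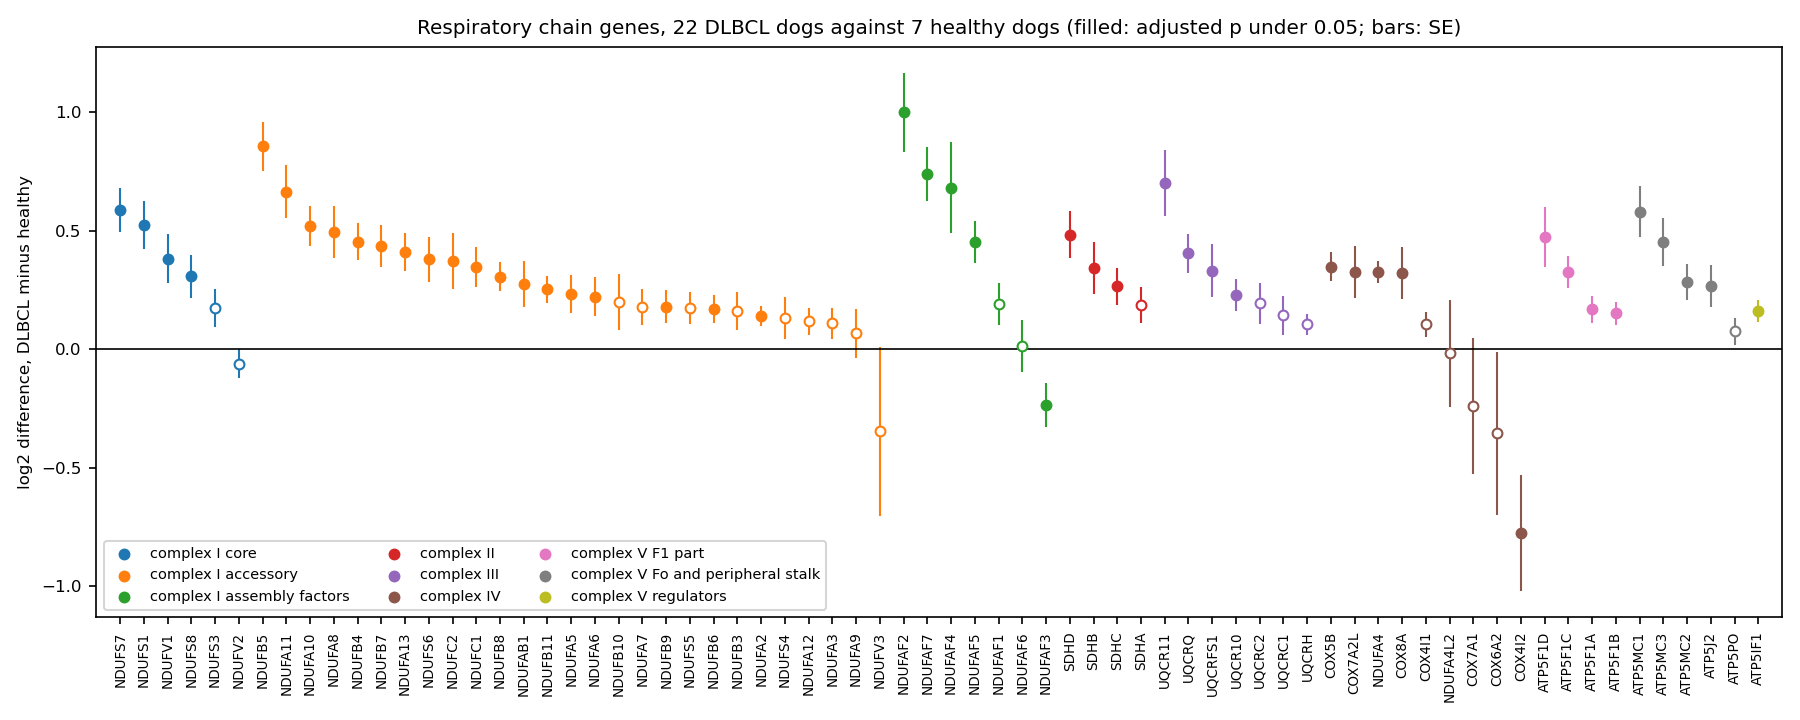
The log2 difference of each of the 70 genes, 22 DLBCL dogs minus 7 healthy dogs, grouped by complex along the x axis and sorted within each group, with bars for the standard error and filled points for an adjusted p under 0.05. Most points lie above 0, between 0.1 and 0.6, with NDUFAF2 highest at 1.0 and COX4I2 lowest at -0.78.

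Complex I, the NADH dehydrogenase, is the largest of the complexes. Of its 6 measured core subunits, the catalytic ones, 4 rose and 0 fell, with a median difference of 0.35. NDUFS7, which carries the last iron-sulphur cluster before coenzyme Q, had a lowest, median and highest value of 10.94, 11.31 and 11.71 in DLBCL dogs and of 10.66, 10.74 and 10.90 in healthy dogs. The groups did not overlap, and the difference was 0.59 ± 0.09 (SE, adjusted p = 1.83e-05). NDUFS1, an iron-sulphur subunit near the NADH site, ran from 11.48 over 12.09 to 12.47 in DLBCL dogs and from 11.24 over 11.51 to 11.80 in healthy dogs. It rose by 0.52 ± 0.10 (adjusted p = 1.88e-04), with 18 DLBCL dogs above all healthy dogs. NDUFV1, the subunit that binds NADH, rose by 0.38 ± 0.10 (adjusted p = 0.00556), with means of 12.10 in DLBCL and 11.72 in healthy dogs. A second NDUFV1 probeset rose by 0.69 (adjusted p = 6.86e-04). NDUFS8, another iron-sulphur subunit, was the fourth that rose, by 0.31. NDUFV2, the partner of NDUFV1, had a difference of -0.06 (adjusted p = 0.47) and NDUFS3 one of 0.17 (adjusted p = 0.10). The other NDUFS3 probeset rose by 0.34 (adjusted p = 0.012).

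Of the 27 accessory subunits of complex I, which surround the core, 18 rose and 0 fell, with a median of 0.23. NDUFB5, of the membrane arm, differed most. It had 10.85, 11.43 and 11.96 (lowest, median, highest) in DLBCL dogs and 10.36, 10.62 and 10.84 in healthy dogs. The lowest tumour, a relapsed one, lay just above the highest healthy dog, and the difference was 0.86 ± 0.10 (1.81-fold, adjusted p = 3.01e-07). This size rests on the probeset read: the other NDUFB5 probeset rose by 0.39 ± 0.14 (adjusted p = 0.038). NDUFA11, also of the membrane arm, had 10.19, 10.73 and 11.18 in DLBCL dogs and 9.92, 10.04 and 10.24 in healthy dogs. It rose by 0.67 ± 0.11 (adjusted p = 3.23e-05), and 20 DLBCL dogs lay above all healthy dogs. NDUFA10, an accessory subunit on the matrix side, had 11.23, 11.85 and 12.13 in DLBCL dogs and 11.10, 11.34 and 11.50 in healthy dogs. It rose by 0.52 ± 0.09 (adjusted p = 2.94e-05), with 21 DLBCL dogs above all healthy dogs. A second NDUFA10 probeset rose by 0.84 (adjusted p = 2.15e-06). The other 15 accessory subunits that rose did so by 0.14 (NDUFA2) to 0.49 (NDUFA8). Among the 9 that did not pass the test, 8 had differences of 0.07 (NDUFA9) to 0.20 (NDUFB10), and NDUFV3, described below, had -0.35. The other probeset of NDUFS4, a gene among these 9, rose by 0.37 (adjusted p = 0.00552). NDUFB8 and NDUFC2 are read from probesets of 1 sequence cluster by their identifiers, so that their values may not be separate.

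The 7 complex I assembly factors with an NDUFAF name spread most widely. Of these, 4 rose, 1 fell and 2 did not pass the test, with a median of 0.45. NDUFAF2, a chaperone that resembles the subunit NDUFA12, had 10.44, 11.70 and 12.11 in DLBCL dogs and 10.27, 10.64 and 10.98 in healthy dogs. It rose by 1.0 ± 0.17 (adjusted p = 3.45e-05), the largest difference of the 70 genes, and its 2 lowest tumours, naive sample 5 and relapsed sample 18, lay in the healthy range. NDUFAF7, a mitochondrial methyltransferase needed for complex I assembly, had 9.56, 9.99 and 10.50 in DLBCL dogs and 8.52, 9.35 and 9.68 in healthy dogs, and rose by 0.74 ± 0.11 (adjusted p = 1.24e-05). NDUFAF4 rose by 0.68 ± 0.19 (adjusted p = 0.00670), with 8.96 ± 0.49 in DLBCL and 8.28 ± 0.31 in healthy dogs (SD). NDUFAF5, which modifies NDUFS7, rose by 0.45. NDUFAF3, which works together with NDUFAF4, went the other way. It had 10.19, 10.58 and 11.22 in DLBCL dogs and 10.70, 10.87 and 10.93 in healthy dogs, and fell by 0.24 on the log2 scale (SE 0.09, adjusted p = 0.047). This call was lost, with an adjusted p of up to 0.089, when any 1 healthy dog other than that of sample 7 was left out, and also when arrays were centred on their median, and NDUFAF3 also had the lowest median correlation with the other members among tumours. NDUFAF1 (0.19, adjusted p = 0.094) and NDUFAF6 (0.01, adjusted p = 0.93) did not pass the test.

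All 4 genes of complex II, the succinate dehydrogenase, had positive differences, and 3 rose. SDHD, a membrane anchor, ran from 11.05 to 12.04 in DLBCL dogs with a mean of 11.53, and from 10.77 to 11.27 in healthy dogs with a mean of 11.05, and rose by 0.48 ± 0.10 (adjusted p = 3.75e-04). The iron-sulphur subunit SDHB rose by 0.34 ± 0.11 (adjusted p = 0.017) and the second anchor SDHC by 0.26 ± 0.08 (adjusted p = 0.011). The flavoprotein SDHA, which oxidises succinate, had 12.44 ± 0.19 in DLBCL and 12.25 ± 0.07 in healthy dogs (SD), a difference of 0.19 that did not pass the test (adjusted p = 0.061).

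Of the 7 genes of complex III 4 rose, with all 7 differences positive. UQCR11, a small subunit, had 10.85, 11.54 and 12.28 in DLBCL dogs and 10.72, 10.88 and 11.17 in healthy dogs. It rose by 0.70 ± 0.14 (adjusted p = 2.37e-04), with 20 DLBCL dogs above all healthy dogs. This size rests on the probeset read: of its 6 probesets 3 had differences of 0.62 to 0.91, and the other 3 had 0.03 to 0.17 and were not called. UQCRQ, another small subunit, rose by 0.40 ± 0.08 (adjusted p = 3.10e-04), the Rieske iron-sulphur protein UQCRFS1 by 0.33 ± 0.11 (adjusted p = 0.023) and UQCR10 by 0.23 ± 0.07 (adjusted p = 0.011). Second probesets of these genes rose by 0.58 (UQCRQ), 0.65 (UQCRFS1) and 0.30 (UQCR10). By the probeset read, the core proteins UQCRC1 (0.14, adjusted p = 0.19) and UQCRC2 (0.19, adjusted p = 0.084) did not pass the test. Neither did the hinge protein UQCRH (0.10, adjusted p = 0.060). By other probesets UQCRH rose by 0.23 (adjusted p = 0.00118) and 0.30 (adjusted p = 2.66e-04), with a further one at 0.12 (adjusted p = 0.30). Another UQCRC1 probeset rose by 0.42 (adjusted p = 0.022), and the other UQCRC2 probesets did not pass. Cytochrome c1, CYC1, is a subunit of complex III that the naming rule does not take. It rose by 0.79 ± 0.16 (adjusted p = 3.24e-04).

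Complex IV, cytochrome c oxidase, was the mixed complex. Of its 9 genes 4 rose and 1 fell, with a median of 0.11. NDUFA4, once counted to complex I and now to complex IV, had 13.38, 13.60 and 13.70 in DLBCL dogs and 13.13, 13.27 and 13.34 in healthy dogs. The groups did not overlap, although the difference was only 0.33 ± 0.05 (adjusted p = 3.37e-06). COX5B, a zinc-binding subunit, had 13.15, 13.53 and 13.66 in DLBCL dogs and 12.90, 13.15 and 13.36 in healthy dogs, and rose by 0.35 ± 0.06 (adjusted p = 6.25e-05). COX7A2L, which helps to join complexes III and IV, rose by 0.33 ± 0.11 (adjusted p = 0.023) and the small subunit COX8A by 0.32 ± 0.11 (adjusted p = 0.023). COX4I1, the common form of subunit 4, had 13.71 ± 0.12 in DLBCL and 13.61 ± 0.06 in healthy dogs (SD), with a difference of 0.11 (adjusted p = 0.13). Its other probeset rose by 0.28 (adjusted p = 7.99e-04). The genes without a positive difference were tissue isoforms: COX4I2, COX6A2, COX7A1 and NDUFA4L2, a paralogue of NDUFA4 known for its response to low oxygen.

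All 10 genes of complex V had positive differences and 9 rose. In the F1 part, which makes ATP, the alpha, beta, gamma and delta subunits all rose: ATP5F1D by 0.47 ± 0.13 (adjusted p = 0.00494), ATP5F1C by 0.33 ± 0.07 (adjusted p = 4.14e-04), ATP5F1A by 0.17 ± 0.06 (adjusted p = 0.022) and ATP5F1B by 0.15 ± 0.05 (adjusted p = 0.018). The 3 genes ATP5MC1, ATP5MC2 and ATP5MC3 encode the same mature c subunit of the membrane ring. ATP5MC1 had 12.13, 12.56 and 13.06 in DLBCL dogs and 11.75, 11.93 and 12.28 in healthy dogs. Its difference of 0.58 ± 0.11 (adjusted p = 1.19e-04) was the largest of the complex. ATP5MC3 rose by 0.45 ± 0.10 (adjusted p = 0.00103) and ATP5MC2 by 0.28 ± 0.08 (adjusted p = 0.00506). ATP5J2, the f subunit, rose by 0.27, and ATP5PO of the peripheral stalk had 0.08 (adjusted p = 0.33). ATP5IF1, a small protein that blocks the reverse reaction of the synthase, had 14.08, 14.30 and 14.42 in DLBCL dogs and 14.03, 14.11 and 14.16 in healthy dogs and rose by 0.16 ± 0.05 (adjusted p = 0.00761).

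**Figure D2:**
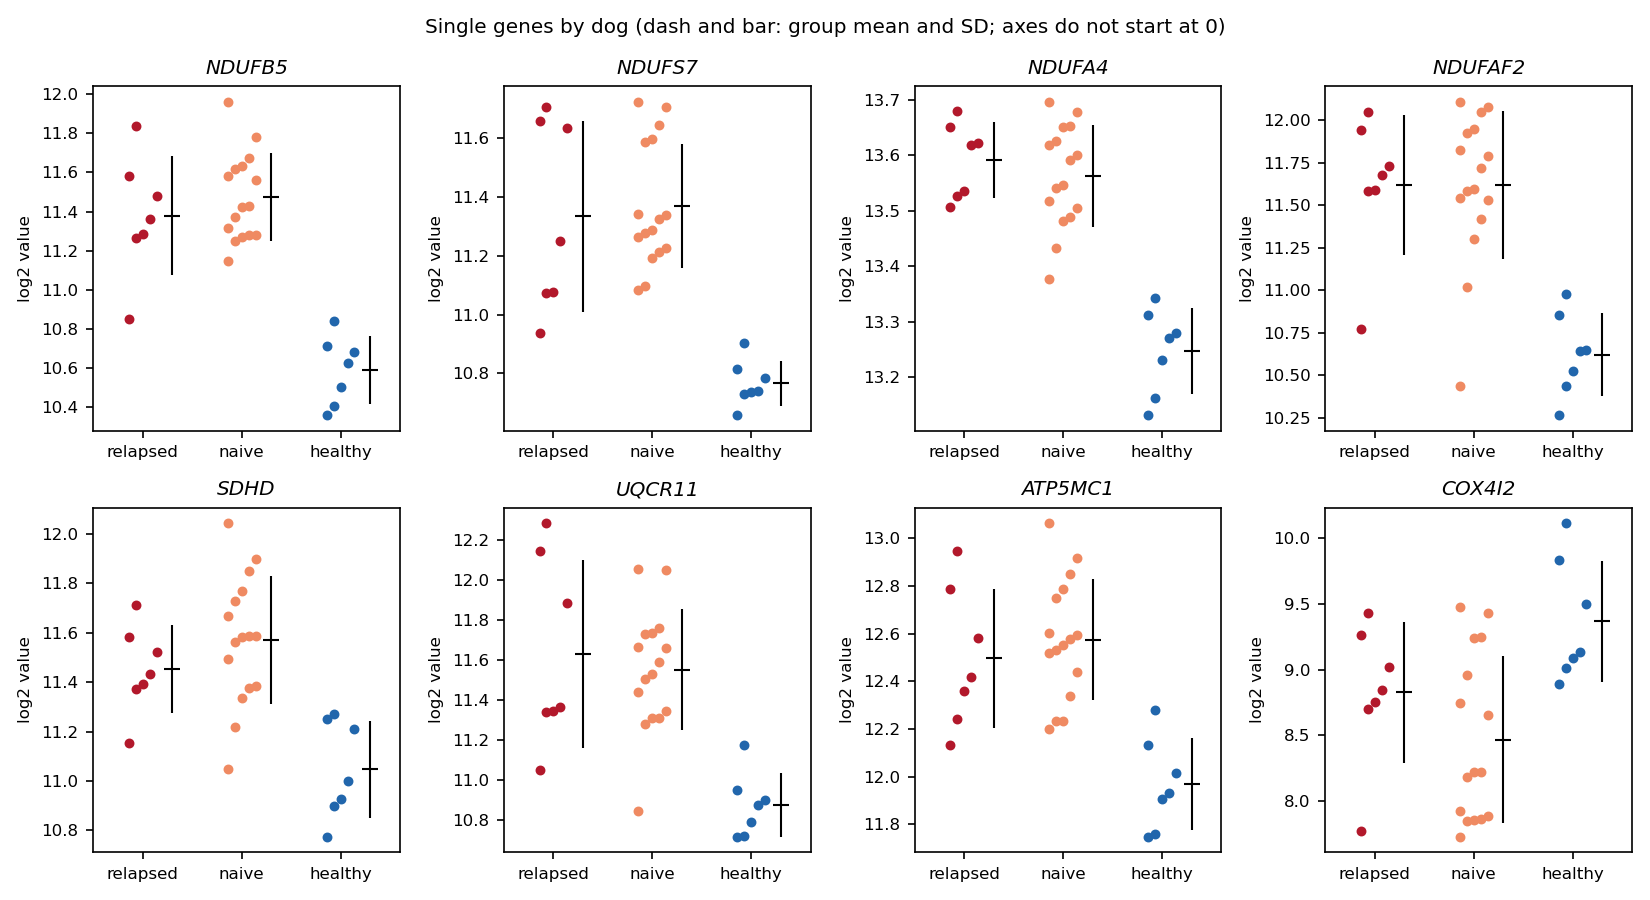
The log2 values of 8 genes by dog in relapsed DLBCL (7), naive DLBCL (16) and healthy nodes (7), with a dash and bar for the group mean and SD; the y axes do not start at 0. NDUFB5, NDUFS7 and NDUFA4 show no overlap of either tumour group with the healthy dogs, and COX4I2 is the 1 gene of the 8 that runs lower in tumours.

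Relapsed and naive tumours were set apart next, each against the same 7 healthy dogs. Of the 70 genes 25 rose in relapsed DLBCL and 0 fell, against 11.9% and 10.6% of all genes. In naive DLBCL 47 rose and 3 fell, against 19.8% and 15% of all genes. The median differences were 0.25 in relapsed and 0.28 in naive DLBCL. NDUFB9 rose in relapsed DLBCL and not in naive DLBCL, and the other 24 genes that rose in relapsed DLBCL rose in both. NDUFB5 differed from healthy dogs by 0.79 ± 0.13 in relapsed and by 0.88 ± 0.10 in naive DLBCL, NDUFAF2 by 1.0 ± 0.17 in both, NDUFA4 by 0.34 ± 0.06 in relapsed and 0.32 ± 0.05 in naive DLBCL, and UQCR11 by 0.76 ± 0.18 in relapsed and 0.68 ± 0.12 in naive DLBCL. The fewer calls in relapsed DLBCL go with 7 against 16 dogs and with standard errors of 0.11 against 0.08 in the median gene. Without sample 18 the relapsed count was 34. Without samples 4 and 24 it was 10, and COX6A2 fell. The genes that fell in naive DLBCL were COX4I2, COX6A2 and NDUFAF3.

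Set directly against each other, relapsed and naive tumours did not separate. With limma, 0 of the 70 genes passed in either direction, as did 0% of all genes that rose and 0% that fell. An unadjusted p under 0.05 was found for 4 of the 70 genes, against 733 of all 15115 genes. The median difference, relapsed minus naive, was -0.04 over the 70 genes and -0.01 over all genes, and 56 of the 70 differences were negative. Positive differences were found in 14 of the 70 genes, against 6762 of all 15115 genes. The smallest p was that of NDUFAF7, which had 9.84 ± 0.08 in relapsed and 10.07 ± 0.22 in naive DLBCL (SD, adjusted p = 0.99). COX6A2 had a difference of 0.83, COX8A of -0.23 and COX7A2L of -0.24, and next came ATP5F1D with -0.20, each with an adjusted p of 0.99. The 95% interval of the difference lay within 0.5 on either side of 0 for 64 genes. The widest bounds were -0.92 for NDUFV3 and 1.59 for COX6A2, so that larger differences are not shut out there. In the dog that gave both arrays, relapsed sample 12 was lower than naive sample 11 in 58 genes and higher in 12, with a median difference of -0.12 and no replicate.

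The genes of each complex were also averaged by dog. Complex I subunits averaged 12.27 ± 0.20 in relapsed DLBCL, 12.33 ± 0.12 in naive DLBCL and 12.03 ± 0.10 in healthy nodes (SD, n = 7, 16 and 7). Complex II averaged 12.08 ± 0.18 in relapsed DLBCL, 12.16 ± 0.15 in naive DLBCL and 11.81 ± 0.08 in healthy nodes. Complex III averaged 13.04 ± 0.22 in relapsed DLBCL, 13.04 ± 0.15 in naive DLBCL and 12.74 ± 0.08 in healthy nodes, and complex V 13.23 ± 0.17 in relapsed DLBCL, 13.28 ± 0.13 in naive DLBCL and 12.97 ± 0.08 in healthy nodes. In each of these 5 or 6 of the 7 relapsed and 14 or 15 of the 16 naive tumours lay above all healthy dogs. Complex IV averaged 10.58 ± 0.27 in relapsed DLBCL, 10.48 ± 0.17 in naive DLBCL and 10.51 ± 0.16 in healthy nodes, and only 1 tumour of each kind lay above all healthy dogs. Its mean holds the 4 tissue isoforms, which had the largest SDs of the complex.

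**Figure D3:**
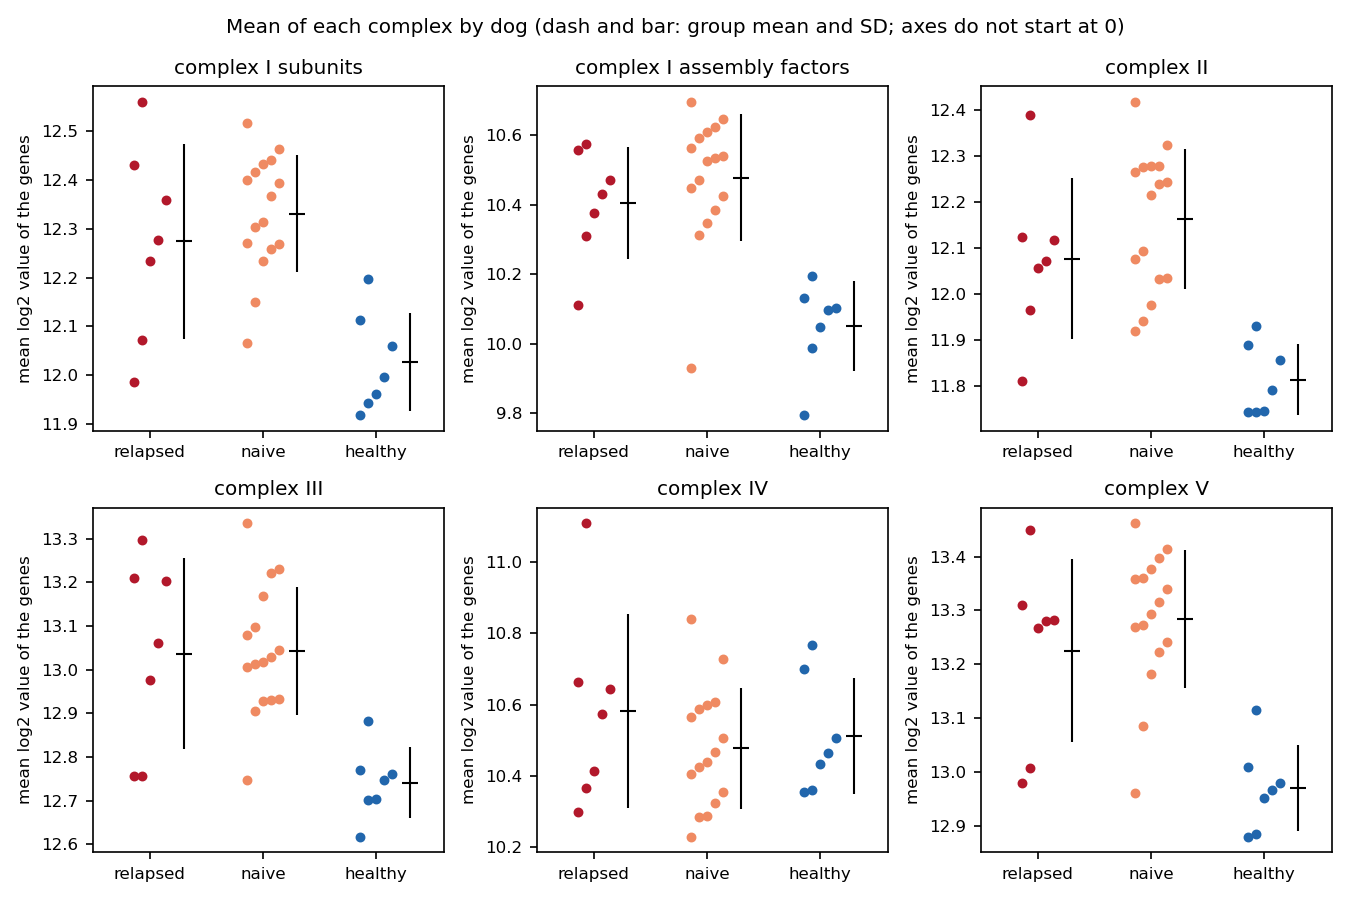
The mean log2 value of the genes of each complex by dog in relapsed DLBCL, naive DLBCL and healthy nodes, with a dash and bar for the group mean and SD; the y axes do not start at 0. Tumours lie above nearly all healthy dogs in complexes I, II, III and V, and overlap them in complex IV.

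Tumours differed among themselves more than healthy dogs did. The median SD of a member was 0.21 over the 22 DLBCL dogs and 0.12 over the 7 healthy dogs, against 0.27 in DLBCL and 0.19 in healthy dogs over all genes. Averaged over the 70 genes, the highest tumours were relapsed sample 4 (12.30), naive sample 21 (12.29) and relapsed sample 24 (12.26), and the lowest were relapsed samples 18 (11.84) and 9 (11.88) and naive sample 20 (11.86). Healthy dogs ran from 11.76 to 11.99. The mean of the proliferation markers was 12.21, 12.11 and 11.78 in the 3 highest tumours and 10.86, 11.13 and 11.58 in samples 18, 9 and 20. Samples 4 and 24 were also the tumours with the highest skeletal muscle marker means (8.25 and 10.38), and sample 21 had 5.50. Sample 18 also had high adipose (10.14) and stroma (12.21) marker means. Naive sample 14, taken under doxycycline, which is known to block mitochondrial ribosomes, had 12.05 and ranked at 17 of 23 tumour arrays.

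Across the 22 DLBCL dogs the members moved together. The median Pearson correlation of 2 genes of the same complex was 0.46 (888 pairs) and of 2 genes of different complexes 0.43 (1527 pairs), against 0.01 for all pairs of the 15115 genes. Here complex I took in its assembly factors, and most pairs within a complex were of complex I. Spearman's rho gave 0.41 and 0.40, against 0.01. Without samples 5 and 18, which stand apart from the other tumours, the Pearson medians were 0.38 and 0.37. These points share arrays and their normalization and are given as a description. The pairs of all genes were not matched for signal level, whose median was 12.36 over the members and 7.55 over all genes. ATP5F1C (0.64), NDUFA13 (0.63) and NDUFA10 (0.63) had the highest median correlation with the other members, and NDUFAF3 (-0.26), COX7A1 (-0.24) and COX4I2 (-0.10) the lowest.

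The tissue isoforms are described by sample. COX4I2, a form of subunit 4 known from lung, vessel walls and low oxygen, had 7.73, 8.70 and 9.48 in DLBCL dogs and 8.89, 9.13 and 10.11 in healthy dogs. It fell by 0.78 on the log2 scale (SE 0.24, adjusted p = 0.015), with 14 DLBCL dogs below all healthy dogs and its highest healthy value in healthy dog 1. Without healthy dog 1 the difference was -0.65 (adjusted p = 0.054). Of the 8 stroma and vessel markers LUM rose by 1.71, PDGFRB fell by 0.77 and VWF fell by 0.69, and the other 5 did not pass the test. The second COX4I2 probeset had 0.11 (adjusted p = 0.27), but its mean of 4.81 lay close to the highest tag control, at 4.56.

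COX6A2, the form of subunit 6A of heart and skeletal muscle, had 6.04, 6.64 and 10.68 in DLBCL dogs and 6.95, 7.28 and 7.39 in healthy dogs. The highest tumours were relapsed sample 24 (10.68), relapsed sample 4 (7.72) and naive sample 5 (7.58), the 3 that lay above all healthy dogs. Samples 24 and 4 had the highest skeletal muscle markers, and sample 5 did not, with a mean of 5.54. The mean of 6 such markers was 10.38 in sample 24 and 8.25 in sample 4, at most 6.43 in the other tumours and at most 5.93 in healthy dogs. MYH2, a myosin of fast muscle fibres, was 12.44 in sample 24, 10.17 in sample 4 and 6.39 in relapsed sample 18, whose COX6A2 was 7.002, and at most 3.56 in the other relapsed tumours, 3.93 in naive tumours and 3.51 in healthy dogs. The difference of COX6A2 was -0.36 (adjusted p = 0.45) with these 2 tumours and -0.59 without them (SE 0.12, adjusted p = 6.06e-04). A second probeset of the gene fell by 0.51 (adjusted p = 0.042). Counts over the 70 genes were close without them, at 44 that rose and 3 that fell.

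COX7A1, the muscle form of subunit 7A, had 7.86, 8.54 and 10.52 in DLBCL dogs and 8.23, 8.90 and 10.59 in healthy dogs. Its difference was -0.24 (adjusted p = 0.56). The highest values were in healthy dog 1 (10.59), relapsed sample 18 (10.52), relapsed sample 24 (9.77) and naive sample 5 (9.77). The stroma marker mean was 12.21 in sample 18, 10.997 in sample 24 and 11.58 in sample 5, against 11.89 in healthy dog 1. Relapsed samples 3 and 4 had stroma means of 11.97 and 11.91 with COX7A1 at 9.01 and 8.55. The part of stroma was not tested. NDUFA4L2 was near the controls in most dogs, at 4.58 to 7.29 in DLBCL dogs and 4.52 to 5.69 in healthy dogs, and 7.29 was naive sample 21 alone.

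NDUFV3, an accessory subunit of complex I singled out here for its spread, split within groups. In healthy dogs samples 8, 6 and 10 had 13.57, 13.26 and 13.05, and the other 4 dogs had 10.29 to 11.37. In naive DLBCL samples 1, 2, 6 and 21 had 13.14, 13.11, 12.62 and 12.20, and the other 12 had 10.86 to 11.69. The 7 relapsed tumours had 10.93 to 11.61. A second probeset ran alike, up to 12.85 in naive DLBCL and 13.44 in healthy dogs, with the same sample on top in both of these groups. In relapsed DLBCL sample 3 was on top by the probeset read and sample 24 by the second. The difference of DLBCL and healthy dogs, -0.35 ± 0.36, did not pass the test (adjusted p = 0.48).

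**Figure D4:**
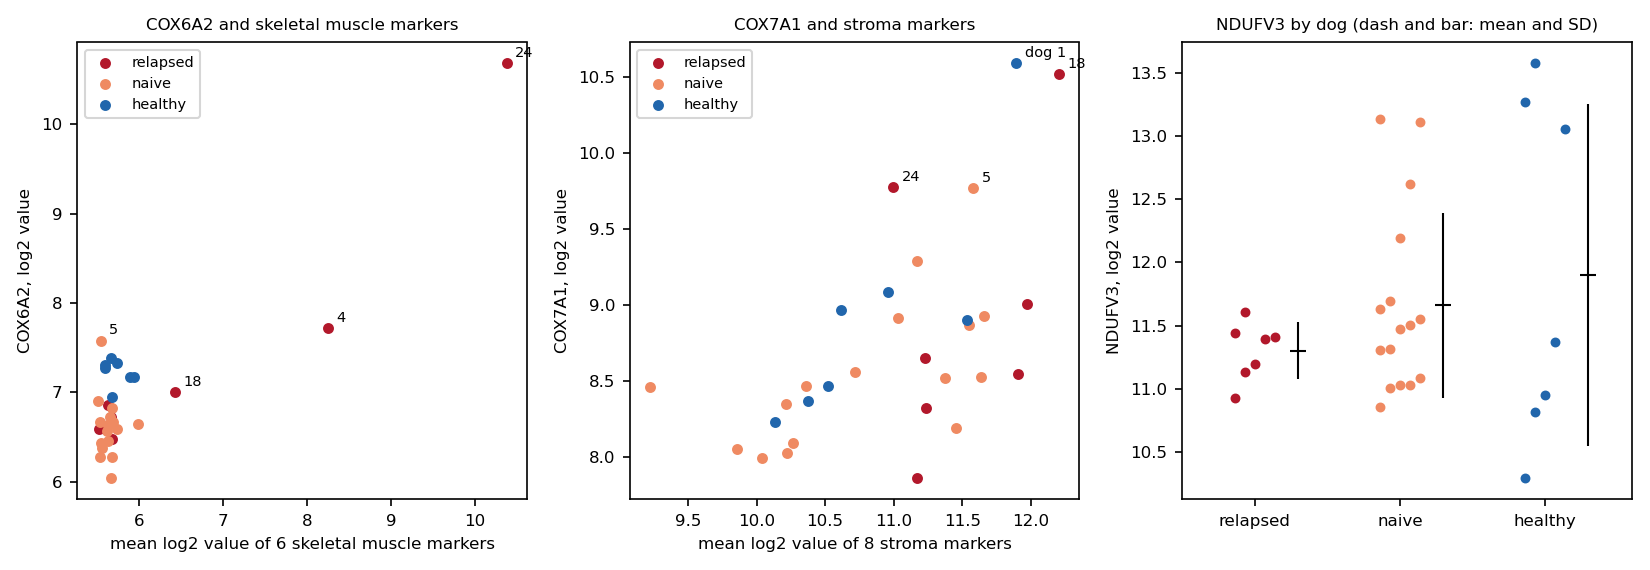
Left, COX6A2 against the mean of 6 skeletal muscle markers; middle, COX7A1 against the mean of 8 stroma markers; right, NDUFV3 by dog with group mean and SD; all as log2 values, 1 point a dog in relapsed DLBCL, naive DLBCL and healthy nodes, with sample numbers at single points. Relapsed samples 24 and 4 stand apart in muscle markers, sample 24 also in COX6A2, and NDUFV3 reaches 13 in some naive tumours and healthy dogs.

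RIN was higher in tumours than in all healthy dogs but healthy dog 1, so that RIN and disease are largely confounded in every comparison with healthy nodes. With RIN as a covariate 1 of the 70 genes rose and 0 fell, against 0.668% and 1.19% of all genes. The gene that kept its call was NDUFAF7, at 1.08 ± 0.24 (adjusted p = 0.018). The median difference was 0.28 with RIN and 0.27 without, against 0.08 and 0.06 over all genes. Of the 70 genes 62 were positive both with and without RIN, and with RIN 23 were higher with an unadjusted p under 0.05. The shares over all genes are not given here for these counts. The median gene moved by 0.064, but single genes moved further: with RIN, COX7A1 had -0.91, NDUFAF4 0.40, SDHB 0.15 and NDUFAF1 0.41, and the 2 genes that changed sign were NDUFV3 and NDUFA3. The standard error of the median gene was 0.19 with RIN and 0.09 without. NDUFB5 had 0.77 ± 0.22 (adjusted p = 0.066) and NDUFA4 0.28 ± 0.10 (adjusted p = 0.15) with RIN, while NDUFV3 had 0.74 ± 0.75 (adjusted p = 0.70). Within the 7 healthy dogs, whose RIN ran from 5.8 to 9.15, 0 of the 70 genes had a slope with RIN that passed (2 with an unadjusted p under 0.05, against 13.5% of all genes) and 22 slopes were positive, against 41.4% of all genes, with a median of -0.02 per RIN unit. Within the 22 DLBCL dogs 0 slopes passed (8 with an unadjusted p under 0.05, against 10.6% of all genes) and 61 were positive, against 56.1% of all genes. The median slope was 0.12 per RIN unit in DLBCL dogs, against 0.03 over all genes, and over all genes in healthy dogs it was -0.02. These slopes are per 1 RIN unit, and RIN averaged 9.64 in DLBCL and 7.11 in healthy dogs, so that small slopes do not make the part of RIN small. Healthy dog 1, with a RIN of 9.15 near that of the tumours, had a mean over the 70 genes of 11.76, the lowest of the healthy dogs, with that of sample 5 close to it. This is 1 dog, and its node also differed in cell type markers. Its proliferation (9.94) and T cell (10.54) marker means were the lowest of the healthy dogs, and its macrophage (12.42) and stroma (11.89) means the highest. The part of these markers in its level was not tested.

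**Figure D5:**
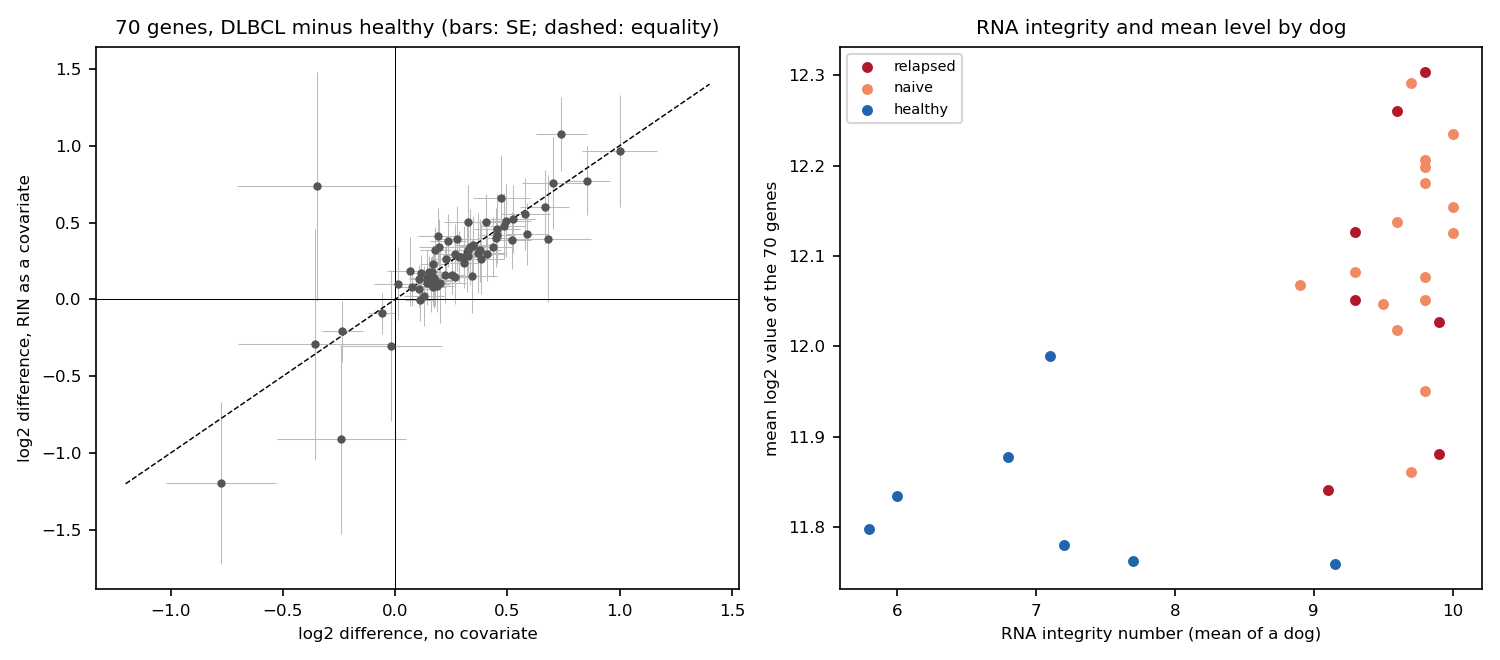
Left, the log2 difference of each of the 70 genes, DLBCL minus healthy, without a covariate on the x axis and with RIN as a covariate on the y axis, with bars for the standard error and a dashed line of equality; right, the mean log2 value of the 70 genes against RIN for each dog. Most genes lie near the dashed line with wider bars on the y axis, and the healthy dog with a RIN of 9.15 lies at 11.76.

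The probeset types differed. Of the 139 member probesets 85 rose and 3 fell, and of the 44 genes with several probesets 40 had the same sign in all of them and 0 were called both ways. Sizes differed between probesets of the same gene, so that the sizes given above rest on the probeset read. Plain probesets, designed to match 1 transcript, rose in 19 of 54 cases, against 18.6% of all plain probesets with a symbol. Those marked as matching several transcripts or sharing probes rose in 66 of 85 cases, against 26.3%. The second kind can also read related copies of a gene, and their part in the difference was not tested.

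Other mitochondrial genes were counted from lists, against the 19.9% of all genes that rose and 14.9% that fell. Of 19 assembly factors of complexes III and IV 10 rose and 0 fell, with a median of 0.27. LYRM7, which brings in the Rieske protein, rose by 0.95, COA7 by 0.75, LRPPRC, which stabilises mitochondrial mRNA, by 0.72, and BCS1L, which inserts the Rieske protein, by 0.65. Of 9 complex I assembly factors with other names 5 rose, led by NUBPL (0.77), TMEM126B (0.55), ACAD9 (0.45) and TIMMDC1 (0.39). Of 8 factors for complexes II and V 5 rose, led by ATPAF2 (0.94), SDHAF3 (0.91), SDHAF2 (0.61) and SDHAF4 (0.52). Of 10 electron carriers and feeder enzymes 5 rose and 2 fell. Cytochrome c, CYCS, rose by 0.60, and DHODH, the pyrimidine enzyme that feeds coenzyme Q, rose by 0.54 with all 22 DLBCL dogs above the healthy dogs. The 2 that fell both oxidise sulphur compounds: SQOR fell by 1.05 (adjusted p = 0.00207) and SUOX by 0.71 (adjusted p = 2.51e-04).

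Of 13 genes of coenzyme Q synthesis 4 rose and 2 fell, and the share that fell is near that over all genes. COQ7, a hydroxylase of the pathway, rose by 1.13, COQ10A by 0.65 and COQ9 by 0.39, and COQ8A fell by 0.56 (adjusted p = 0.00175). In the citric acid cycle and pyruvate dehydrogenase 8 of 16 rose and 0 fell. Fumarase, FH, rose by 1.04 ± 0.13 (adjusted p = 6.84e-07), citrate synthase, CS, by 0.75, and DLAT and DLST by 0.47 each. Of 16 genes of mitochondrial biogenesis and DNA maintenance 10 rose and 0 fell, among them TFAM (0.67), which packs mitochondrial DNA, SSBP1 (0.65), TEFM (0.60) and the helicase TWNK (0.56). Of 11 carriers and uncoupling proteins 4 rose and 2 fell. SLC25A5, the ADP/ATP carrier of dividing cells, rose by 0.69 and SLC25A31, a carrier known from germ cells, by 0.80, and UCP3 fell by 0.57. UCP1, the uncoupling protein of brown fat, fell by 0.97 (adjusted p = 0.043), but its healthy values of 10.29 in sample 6 and 8.60 in sample 10 stood alone, and the other 5 healthy dogs had 5.70 to 6.05 and the tumours 5.54 to 6.69. Without sample 6 the difference was -0.40 (adjusted p = 0.22), and without sample 10 it was -0.68 (adjusted p = 0.17). With RIN as a covariate the UCP1 difference changed sign, to 0.43 ± 0.75 (adjusted p = 0.85). The adipose marker means of these dogs, 9.89 and 10.58, were the highest of the healthy dogs. Over these lists together 51 of 101 genes rose and 6 fell, with a median of 0.26.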

How the data were processed

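RNA of 33 canine lymph node samples was amplified and hybridised to the Affymetrix Canine Genome 2.0 array by the authors, who left out 2 further arrays. The deposited values are log2 expression values that the authors made by RMA in the Affymetrix Expression Console, with versions not given in the sources used here. RMA gives all arrays 1 distribution, so that a change in total RNA would be lost, and differences of faint probesets come out too small. Depth has no meaning here, and the number of arrays limits the precision. The columns of sample values left unused numbered 0. The authors extracted RNA in 2 batches, whose members were not assigned here.

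Groups came from the sample labels. Arrays of 1 dog were averaged, except between relapsed and naive DLBCL. Tests ran over all 43035 probesets in limma 3.58.1 (R 4.3.3), two-sided, with Benjamini-Hochberg adjustment over all of them and a threshold of 0.05; the probeset with the highest mean stood for a gene. Intervals are 95% intervals. Gene symbols came from the platform annotation, with 29264 probesets having 1 symbol, 439 several and 13332 none here. Genes were named by rule: in each group of members the 3 largest rises and 2 largest falls that passed, all of complexes II and III, the COX isoforms, ATP5IF1, genes without overlap, the 5 smallest p between relapsed and naive DLBCL, and up to 4 of each list. NDUFV3, NDUFA4L2, DHODH, LUM, PDGFRB, VWF, MYH2 and further single genes were named after their values were seen. Members, lists and tests were chosen with earlier results of these data known. The procedure was tested on simulated data. Other steps used Python 3.11.15, pandas 2.3.3, scipy 1.17.1 and matplotlib 3.10.9. Alternatives were other units and blocks, the methods' ANOVA, RIN, a filter, other centrings, other probesets and leaving out dogs.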

Additional observations from a re-analysis of the deposited data

Results flagged for a closer look

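In groups of 7 dogs, 6 of 98 sets of values held a dog far from the others, and chance alone marks about 1 in 20 sets. In relapsed DLBCL, NDUFAF2 was 10.78 in sample 18, with the next sample at 11.58, and COX6A2 was 10.68 in sample 24, with the next at 7.72. In healthy dogs, NDUFAF3 was 10.70 in sample 7 against 10.84 in the next dog, UQCR10 was 13.62 in sample 10 against 13.44, COX7A1 was 10.59 in healthy dog 1 against 9.09, and the mean of the complex I core subunits was 11.79 in sample 10 against 11.65.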

How the results depend on the processing

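Counts out of 70 genes follow, as genes that rose or fell. With RIN as a covariate DLBCL gave 1 and 0 against healthy nodes (NDUFAF7), naive DLBCL 3 and 0 (NDUFAF7, NDUFB5 and UQCRQ), and relapsed DLBCL 1 and 0 (NDUFAF7). Centring the arrays on their median left 1 gene that fell in DLBCL (COX4I2), and plain probesets gave 17 of 40 genes that rose. Without DLBCL samples 4 and 24, chosen after seeing the data, relapsed DLBCL gave 10 and 1 (COX6A2). Leaving out 1 healthy dog at a time gave 36 to 45 that rose and 0 to 2 that fell in DLBCL, with 36 and 0 without healthy dog 1. Tumour dogs were not left out 1 at a time in that comparison. In naive DLBCL, leaving out single dogs gave 40 to 47 and 2 to 3, but not every naive tumour was left out in turn. In relapsed DLBCL, leaving out single dogs gave 18 to 34 and 0. Of the 46 genes that rose in DLBCL, 35 did so without each healthy dog in turn. Without healthy dog 1 COX7A1 changed sign, to 0.035. The other counts lay within 1.5 times, the lowest in DLBCL being 34 that rose, with arrays centred on ribosomal protein genes, and relapsed against naive DLBCL stayed at 0 and 0 under all settings run. Sample numbers are shared by 9 DLBCL and 9 healthy arrays but do not pair them: same-numbered arrays deviated with correlations of -0.16 to 0.11, and 1 DLBCL array correlated best with its own number. The replicate block gave 41 and 3, against 45 and 2 on the same arrays without it. The dog as a random block could not be fitted between relapsed and naive DLBCL, where 1 dog gave 2 arrays. Other causes of these moves were not tested.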
